A study of Mus musculus with 16 samples.

Results

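The 10 carboxylesterase genes followed here through a liver RNA-seq experiment were *Ces1b*, *Ces1c*, *Ces1d*, *Ces1e*, *Ces1f*, *Ces1g*, *Ces2a*, *Ces2c*, *Ces2e* and *Ces3a*. These genes were chosen by their symbols, with earlier results of these data known. They were 10 of the 20 carboxylesterase rows among the 52143 rows of the count table, and all 10 were among the 11324 genes that passed the filter on low counts and were tested. The experiment had 16 libraries from livers of male C57BL6/J mice, 4 in each of 4 groups. The Chow group ate a standard diet and received saline. The Chow/FGFR4 KD group ate the same diet and received an siRNA against FGFR4, the hepatocyte receptor for FGF15, at 3 mg/kg every 2 weeks. The HFD group ate a diet with 60% of its energy from fat and received saline, and the HFD/FGFR4 KD group ate that diet and received the siRNA. All mice were 6 weeks old at the start and stayed on their diet for 12 weeks. The siRNA carried N-acetylgalactosamine, a sugar that hepatocytes take up, so the knockdown was aimed at hepatocytes, and the control mice received saline and no control siRNA. The study compared the diets and asked what loss of hepatic FGFR4 does on each of them.

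Carboxylesterases are serine hydrolases that cut ester, thioester and amide bonds, and hepatocytes keep most of them in the lumen of the endoplasmic reticulum. They open many ester drugs and insecticides, and several also cleave triacylglycerol, cholesteryl ester or retinyl ester, which ties them to lipoprotein secretion and to the turnover of stored fat. Rodents carry a large set of tandem copies of these genes, so the copies resemble each other in sequence.

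All 20 rows lie on chromosome 8 of GRCm38 in a pair of tandem arrays. The *Ces1* array runs on the minus strand from 93020214 to 93535830 and holds *Ces1b* (ENSMUSG00000078964), *Ces1c* (ENSMUSG00000057400), *Ces1d* (ENSMUSG00000056973), *Ces1e* (ENSMUSG00000061959), *Ces1f* (ENSMUSG00000031725) and *Ces1g* (ENSMUSG00000057074), beside *Ces1a*, *Ces1h* and *Ces5a*. The other array is on the plus strand and holds *Ces2a* (ENSMUSG00000055730, 104734003 to 104741634), *Ces2c* (ENSMUSG00000061825, 104847068 to 104854483), *Ces2e* (ENSMUSG00000031886, 104926260 to 104934672) and *Ces3a* (ENSMUSG00000069922, 105048601 to 105058413). The enzymes that stay in the endoplasmic reticulum are known by a short retrieval signal at the very end of the protein. The last bases of each coding sequence, ending in the stop codon and read from GENCODE M21 transcripts, are shown because this ending divides the members into groups that share a likely location. Capitals mark the last 4 codons before the stop.
Ces1b: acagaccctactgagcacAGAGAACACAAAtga
Ces1c: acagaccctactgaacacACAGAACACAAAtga
Ces1d: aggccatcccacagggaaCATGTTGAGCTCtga
Ces1e: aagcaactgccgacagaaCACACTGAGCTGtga
Ces1f: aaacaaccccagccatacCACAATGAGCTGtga
Ces1g: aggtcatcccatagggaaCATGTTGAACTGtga
Ces2a: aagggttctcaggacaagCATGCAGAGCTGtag
Ces2c: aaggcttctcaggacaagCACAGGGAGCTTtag
Ces2e: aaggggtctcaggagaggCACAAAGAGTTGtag
Ces3a: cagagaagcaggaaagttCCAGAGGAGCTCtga
The pattern of histidine, any residue, glutamate and leucine, a retrieval signal, was encoded by 7 of the 10 members (*Ces1d*, *Ces1e*, *Ces1f*, *Ces1g*, *Ces2a*, *Ces2c* and *Ces2e*). *Ces1b* and *Ces1c* ended instead in codons for glutamate, histidine and lysine, and *Ces1c* is the known secreted carboxylesterase of mouse plasma. *Ces3a* ended in proline, glutamate, glutamate and leucine, which matches the retrieval pattern only in part.

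The copies limit how well reads can be assigned to a single gene. *Ces3a* and its neighbour *Ces3b* were 95.3% identical over 1716 aligned coding bases, with an identical run of 194 bases, and *Ces1b* and *Ces1c* were 91.2% identical over 1662. The bases around the serine codon of the active site are shown for both pairs, with that codon in capitals, because they show how close the copies are.
Ces3a: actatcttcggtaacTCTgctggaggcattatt
Ces3b: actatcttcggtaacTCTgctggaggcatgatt
Ces1b: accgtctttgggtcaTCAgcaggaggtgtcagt
Ces1c: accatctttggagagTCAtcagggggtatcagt
Over these 33 bases *Ces3a* and *Ces3b* differed at 1 position and *Ces1b* and *Ces1c* at 8. Shared sequence was then measured as the percentage of a gene's 31-base transcript words that occur in any other gene. It was 3.63% for *Ces1f*, 6.23% for *Ces1g*, 6.34% for *Ces1d*, 8.09% for *Ces1e* and 8.68% for *Ces2e*. It was 23.3% for *Ces1c*, 23.9% for *Ces1b*, 30.2% for *Ces2a*, 34.9% for *Ces3a* and 50.1% for *Ces2c*, so the values of these 5 members rest on fewer private words. The *Ces2a* and *Ces2c* partners received few of the estimated counts here. Gm7208, which held 24.7% of the *Ces2a* words, had at most 3 counts in any library. The pseudogene *Ces2d-ps*, which held 42.9% of the *Ces2c* words, had at most 11, and *Ces2b*, which held 12.0%, had at most 22. These counts come from the same division of reads, and 87.0% of the *Ces2d-ps* words were shared, so they do not show that a partner was silent. *Ces3b* was a real competitor, with 358 to 2294 counts per library. A fit in which such a member was summed with its partner rows is given beside the results where it changed a call.

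The libraries held 3445949 to 5976449 counts. Every library carried the hepatocyte marker list at 71200 to 93700 CPM (read counts per library size, scaled by TMM). Cpa1, Prss2, Ctrb1 and Amy2b of the pancreas list and Lep of the adipocyte list stood at 0, but other genes of these lists were counted. The whole pancreas list summed to 4.75 to 28 CPM, the intestinal epithelium list to 33.1 to 171 CPM and the adipocyte list to 1150 to 2510 CPM. *Fgfr4* itself was 6.13-fold lower with the siRNA on chow (adjusted p = 0.000223, limma-voom) and 6.85-fold lower on HFD (adjusted p = 9.06e-05). A pair of libraries stood apart. HFD/FGFR4 KD 1 lay nearer to the Chow mean than to the HFD mean for 67% of the 1042 genes with the firmest diet change, against 17.9 to 33.3% for the other 3 libraries of its group. Chow/FGFR4 KD 4 had 14093 CPM of acute-phase genes, against 2249 to 3283 in the rest of its group.

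The liver made *Ces1c* and *Ces3a* in far larger amounts than the other members. Per kilobase of the gene's median coding transcript, the level in Chow was 1610 CPM per kb for *Ces1c* and 876 for *Ces3a*, followed by 337 for *Ces1d*, 228 for *Ces1f* and 193 for *Ces2a*. *Ces1e* (92.1), *Ces1g* (70.7) and *Ces2e* (65.3) came next, and *Ces2c* (39.8) and *Ces1b* (33.3) were lowest. The libraries of *Ces1e* (64.2 to 121), *Ces1g* (57.2 to 81.3) and *Ces2e* (53.0 to 86.2) overlapped in Chow, as did those of *Ces2c* (35.0 to 51.3) and *Ces1b* (29.8 to 38.3), so those neighbours were not separated by their spread. *Ces1c* depends on the length used, since its coding transcripts include a short form, and with the longest transcript its level was 1040 CPM per kb, still above the 846 of *Ces3a*. Together the 10 members made up 93.0% ± 0.846 (SD, n = 4) of all carboxylesterase CPM in Chow and 94.8% ± 3.05 in HFD.

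**Figure D1:**
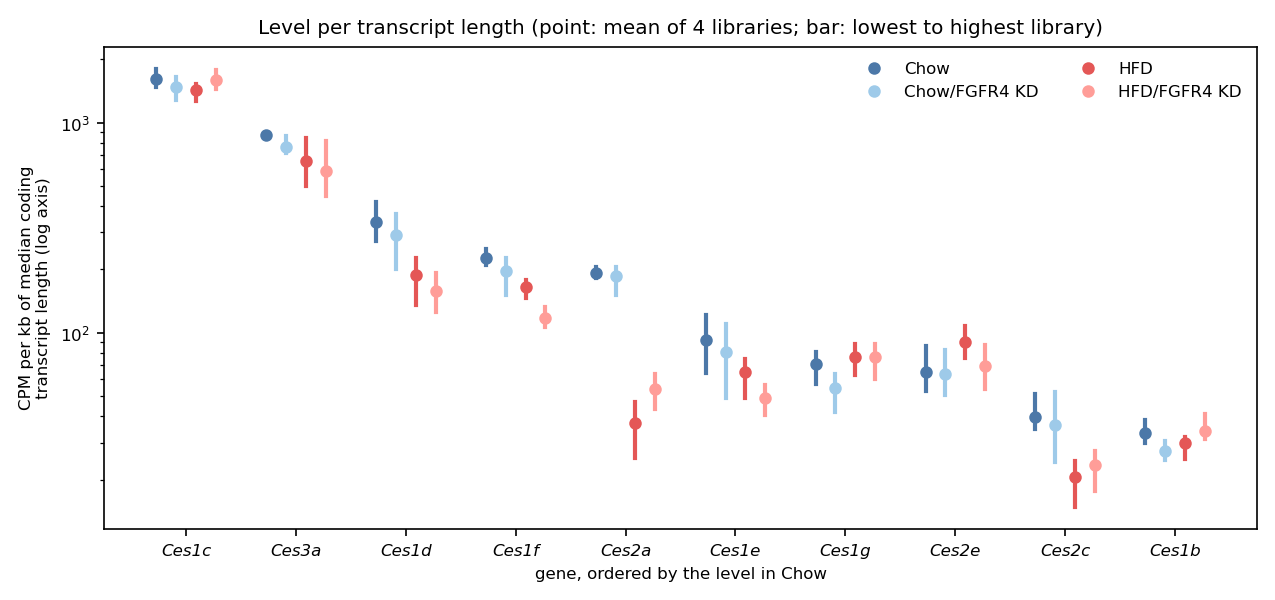
Level of each member in CPM per kb of median coding transcript length, on a log axis, by group (point, mean of 4 libraries; bar, lowest to highest library). *Ces1c* and *Ces3a* lead in every group, and *Ces2a* moves from the fifth place in Chow (193) to between *Ces1e* (65.0) and *Ces1b* (29.8) in HFD (37.1).

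High-fat feeding lowered most of these genes. In saline mice 6 of the 10 members were called lower in HFD than in Chow (*Ces1d*, *Ces1e*, *Ces1f*, *Ces2a*, *Ces2c* and *Ces3a*), 1 was called higher (*Ces2e*), and *Ces1b*, *Ces1c* and *Ces1g* were not called. A call is p under 0.05 with an adjusted p under 0.25 in limma-voom, the thresholds of the study, and it took 12.7% of all tested genes as lower and 13.3% as higher. Of the 7 members with the retrieval ending 6 were called (5 lower, *Ces2e* higher), and of the 3 without it *Ces3a* was. At an adjusted p under 0.05, which took 9.20% of all tested genes, 4 members remained called, all lower (*Ces1d*, *Ces1f*, *Ces2a* and *Ces2c*). Without the pair of libraries that stood apart *Ces3a* joined them, which makes 5 members against 11.2% of tested genes. That pair is in neither Chow nor HFD, so the libraries compared were the same. The filter, the scaling and the shared spread were set anew without the pair, with 11528 genes tested. The libraries of Chow and HFD did not overlap for 5 members, all lower in HFD, against 16.1% of tested genes. The median change of the members was -0.46 on the log2 scale, beside 0.01 for all tested genes. In a bulk sample fewer cells of a type and less RNA per cell cannot be told apart.

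*Ces2a*, a lipase of diacylglycerol and monoacylglycerol, changed most. It stood at 364, 336, 349 and 380 CPM in the 4 Chow libraries and at 67.0, 86.9, 47.1 and 73.4 CPM in the HFD libraries. Every HFD library was below every Chow library by a wide margin. The fall of 5.33-fold (log2 change -2.42, SE 0.157, 95% interval -2.75 to -2.08, adjusted p = 3.28e-07) had the smallest p of all 11324 tested genes. Summed with Gm7208 it was -2.41, and it was called in each of the 10 other settings and with any library left out.

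The 2 other *Ces2* members went in opposite directions. *Ces2c*, a neutral lipid lipase best known from the intestine, had 101, 74.6, 69.0 and 69.3 CPM in Chow and 36.2, 48.5, 29.1 and 48.6 CPM in HFD. The groups did not overlap, and the log2 change was -0.98 (SE 0.230, adjusted p = 0.0147). *Ces2e* had 135, 125, 203 and 152 CPM in Chow and 253, 189, 233 and 178 CPM in HFD. Those groups overlapped, since Chow 3 exceeded HFD 2 and HFD 4, and the rise was 1.40-fold (log2 change 0.48, SE 0.187, adjusted p = 0.114). The *Ces2e* call was lost without Chow 1 (adjusted p = 0.248), Chow 2 (adjusted p = 0.272), HFD 1 (adjusted p = 0.262) or HFD 3 (adjusted p = 0.235), with log2 changes of 0.39 to 0.44. Where such an adjusted p lies under 0.25, the unadjusted threshold of 0.05 was the one missed. *Ces2g*, the tested *Ces2* row outside the 10, also rose (34.0 ± 6.27 to 49.6 ± 3.09 CPM, log2 change 0.56, adjusted p = 0.0632).

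The start regions of the 3 *Ces2* members are shown because these neighbouring copies moved apart. Each line gives the 250 bases before the annotated start on the plus strand, from RefSeq on GRCm38.p6: *Ces2a* at chr8:104733753-104734002, *Ces2c* at chr8:104846818-104847067 and *Ces2e* at chr8:104926010-104926259. Capitals mark AGGTCA, the core hexamer that many nuclear receptors bind.
Ces2a: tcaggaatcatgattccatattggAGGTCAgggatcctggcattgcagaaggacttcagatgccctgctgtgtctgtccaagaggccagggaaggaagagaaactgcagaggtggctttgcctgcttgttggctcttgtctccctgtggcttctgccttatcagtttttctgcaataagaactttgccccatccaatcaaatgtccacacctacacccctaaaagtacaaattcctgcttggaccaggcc
Ces2c: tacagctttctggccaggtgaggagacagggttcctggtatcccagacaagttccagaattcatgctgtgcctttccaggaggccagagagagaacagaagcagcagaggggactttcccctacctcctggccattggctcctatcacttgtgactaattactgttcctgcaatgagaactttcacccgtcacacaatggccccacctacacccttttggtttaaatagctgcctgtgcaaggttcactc
Ces2e: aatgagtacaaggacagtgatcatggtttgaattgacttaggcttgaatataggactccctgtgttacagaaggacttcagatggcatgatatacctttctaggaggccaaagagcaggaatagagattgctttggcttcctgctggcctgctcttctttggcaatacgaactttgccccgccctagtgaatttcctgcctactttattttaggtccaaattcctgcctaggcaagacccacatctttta
The hexamer occurred in *Ces2a*, near the upstream end of the window, and in neither *Ces2c* nor *Ces2e*. It is a common word, present on either strand in 14.0% of 32851 RefSeq promoters of this length. Of the other words searched on both strands, CCAAT (33.8% of promoters) was in *Ces2a* and *Ces2c*, and TTGCNNAA (9.56%) in *Ces2a* and *Ces2e*. TATAAA (12.4%), GTTAAT (6.43%), TGACNNNGC (10.2%) and CAAAGTCC (1.20%) were in none of the 3. A match is a description of these letters only. Promoters of 7 members were matched, and none was matched for *Ces1d*, *Ces1f* and *Ces3a*.

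Within the *Ces1* array *Ces1d*, *Ces1f* and *Ces1e* fell, and the secreted *Ces1c* was not called. *Ces1d*, the triacylglycerol hydrolase that helps to load very-low-density lipoprotein, had 550, 571, 844 and 738 CPM in Chow and 458, 271, 447 and 331 CPM in HFD. No library overlapped, and the log2 change was -0.85 (SE 0.204, adjusted p = 0.0155). *Ces1f*, which also has triacylglycerol lipase activity, went from 403, 403, 484 and 468 CPM to 345, 283, 327 and 314 CPM. It fell by 0.47 on the log2 scale without overlap (SE 0.117, adjusted p = 0.0186). *Ces1e*, known for anchoring beta-glucuronidase in the endoplasmic reticulum, had 160, 127, 239 and 203 CPM in Chow and 149, 128, 141 and 96.8 CPM in HFD, and the groups overlapped. Its log2 change was -0.48 (SE 0.221, adjusted p = 0.179), and the call was lost without Chow 3 (adjusted p = 0.373), Chow 4 (adjusted p = 0.318), HFD 2 (adjusted p = 0.221) or HFD 4 (adjusted p = 0.371), and with upper quartile factors (adjusted p = 0.231).

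*Ces1c* had 1730, 1870, 2130 and 1850 CPM in Chow and 1690, 1800, 1490 and 1780 CPM in HFD. Its 95% interval on the log2 scale was -0.38 to 0.05. *Ces1g*, a lipid hydrolase of hepatocytes, ran from 137 to 194 CPM in Chow and from 150 to 212 in HFD, with an interval of -0.21 to 0.43. *Ces1b* ran from 58.5 to 75.2 CPM and from 49.4 to 62.6, with an interval of -0.40 to 0.07. The counts of *Ces1b* were 2.57 to 4.24 per 100 of *Ces1c* across all 16 libraries, beside 19.8% of its words shared with *Ces1c*, and how much of the *Ces1b* signal came from *Ces1c* reads was not tested.

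*Ces3a*, an abundant liver esterase, had 1760, 1760, 1690 and 1710 CPM in Chow and 1070, 1670, 988 and 1450 CPM in HFD. The Chow libraries were tightly grouped (SD 34.6) and the HFD libraries scattered (SD 322), with HFD 2 just under the lowest Chow value. The log2 change was -0.45 (SE 0.169, adjusted p = 0.105), and the call was lost without HFD 1 (adjusted p = 0.244) or HFD 3 (adjusted p = 0.279). *Ces3b*, the near-identical copy, had 400, 412, 367 and 362 CPM in Chow and 83.4, 202, 71.1 and 417 CPM in HFD, where HFD 4 was above all Chow libraries. It was called lower all the same (log2 change -1.37, SE 0.467, adjusted p = 0.0764). The sum of both rows changed by -0.55 (adjusted p = 0.0923), a call that does not depend on how reads were divided between the copies.

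Summed over the 20 rows of the family, carboxylesterase CPM went from 6173 ± 361 (SD, n = 4) in Chow to 4615 ± 433 in HFD, and the highest HFD library (4970) stayed below the lowest Chow library (5898). The *Ces2* rows moved from 10.2% ± 0.578 to 8.19% ± 0.991 of that sum, the *Ces3* rows from 34.4% ± 2.81 to 31.8% ± 6.81 and the *Ces1* rows from 55.4% ± 3.11 to 60.0% ± 5.86. The scaling matters for these levels. With library totals in place of TMM the median of all tested genes shifted to 0.29 on the log2 scale, 92.1% of all diet calls were higher instead of 51.2%, and the family sums were 5650 and 5079 CPM. Under that scaling 4 members were called (*Ces1d*, *Ces2a* and *Ces2c* lower, *Ces2e* higher), and *Ces1b* (0.12) and *Ces1c* (0.11) changed sign.

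**Figure D2:**
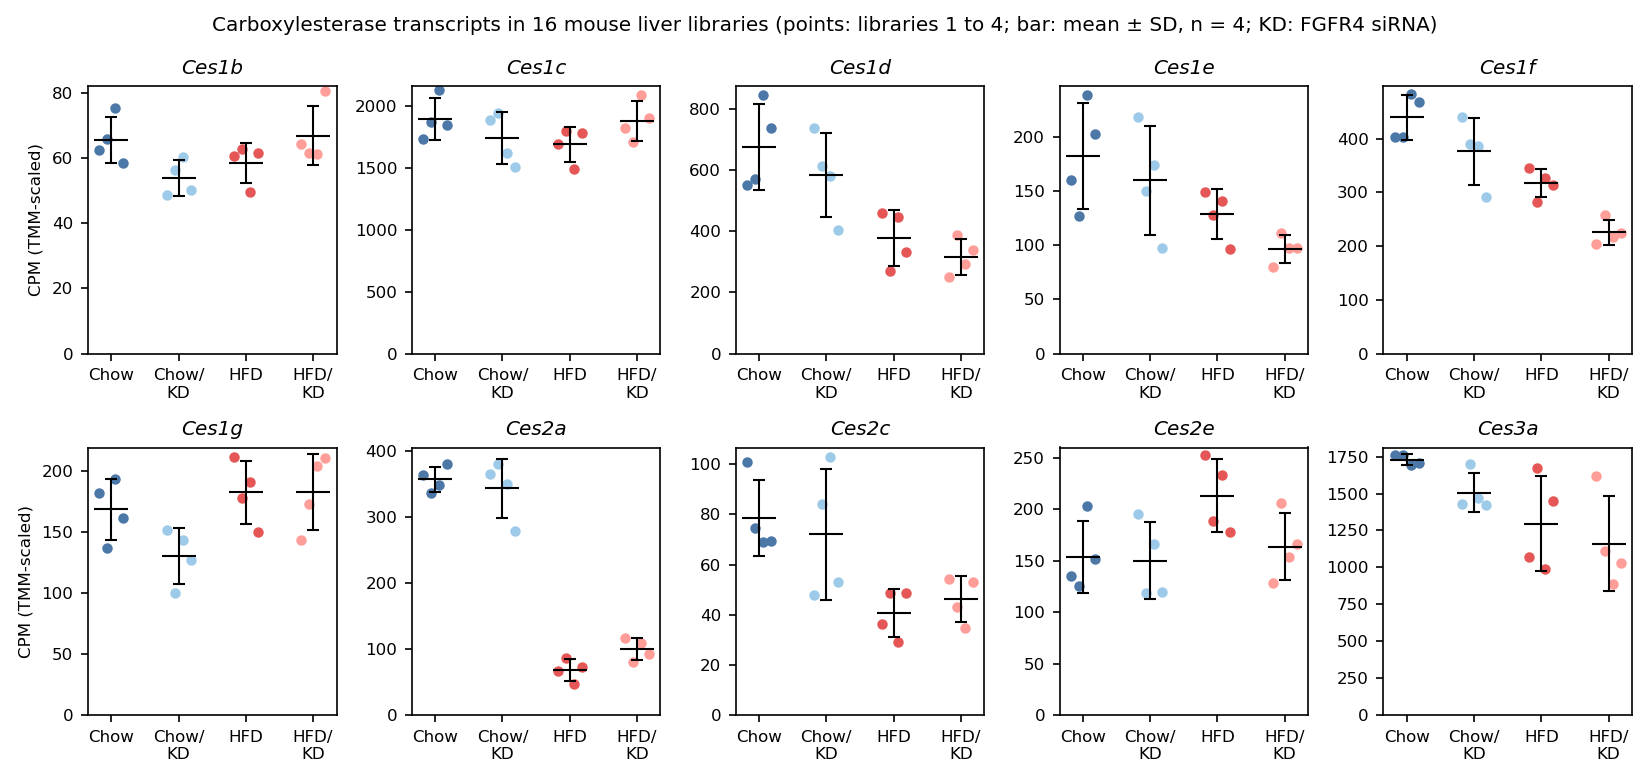
TMM-scaled CPM of the 10 members in each of the 16 libraries, by group (points, libraries 1 to 4; black bar, mean with SD, n = 4). *Ces2a* drops from 336 to 380 CPM in Chow to 47.1 to 86.9 CPM in HFD without overlap, while *Ces1c* stays between 1490 and 2130 CPM in these groups.

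The outer members of the family gave little signal. *Ces1h* and *Ces5a* had no count in any library, which allows up to 3 counts in each, and *Ces1a*, *Ces2f* and *Ces2h* had at most 8 counts. *Ces2b* had 0 to 22 counts per library. *Ces4a* had 9 to 26 counts in Chow and 0 to 6 in HFD, without overlap, but did not pass the filter and was not tested.

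Under FGFR4 knockdown the diet comparison gave 8 called members of 10, beside 20.2% of all tested genes. The same 6 members were called lower in HFD/FGFR4 KD than in Chow/FGFR4 KD as in the saline mice, and *Ces1b* and *Ces1g* were called higher. At an adjusted p under 0.05 (3.10% of tested genes) *Ces1d*, *Ces1f* and *Ces2a* remained, all lower. The libraries did not overlap for 4 members, *Ces1b* higher and *Ces1d*, *Ces1f* and *Ces2a* lower, against 11.5% of tested genes. Without the pair of libraries that stood apart 7 members were called, since *Ces1b* was lost, beside 18.8% of tested genes. On the same libraries *Ces1e* and *Ces3a* were also under an adjusted p of 0.05, which makes 5 members against 3.17% of tested genes, and 7 members did not overlap, *Ces1b* and *Ces1g* higher and *Ces1d*, *Ces1e*, *Ces1f*, *Ces2a* and *Ces3a* lower, against 27.5% of tested genes.

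*Ces2a* was again the tested gene with the smallest p, with 365, 380, 351 and 279 CPM in Chow/FGFR4 KD and 117, 80.5, 109 and 92.5 CPM in HFD/FGFR4 KD. The groups were far apart, and the level was 3.45-fold lower (log2 change -1.79, SE 0.156, adjusted p = 3.00e-05). *Ces1f* had 440, 390, 386 and 291 CPM against 204, 257, 217 and 224 CPM. It fell by 0.73 on the log2 scale (SE 0.116, adjusted p = 0.00386) without overlap. *Ces1d* changed by -0.87 (SE 0.202, adjusted p = 0.0298), *Ces1e* by -0.68 (SE 0.225, adjusted p = 0.108), *Ces2c* by -0.59 (SE 0.237, adjusted p = 0.172) and *Ces3a* by -0.41 (SE 0.168, adjusted p = 0.183). The *Ces2c* and *Ces3a* calls were each lost when any of 4 libraries was left out. For *Ces2c* these were Chow/FGFR4 KD 2 and 3 and HFD/FGFR4 KD 2 and 3, with adjusted p of 0.291 to 0.381, and for *Ces3a* Chow/FGFR4 KD 2 and HFD/FGFR4 KD 2, 3 and 4, with adjusted p of 0.295 to 0.406. Both were also lost without a filter on low counts (adjusted p = 0.278 for *Ces2c* and 0.267 for *Ces3a*), and with library totals in place of TMM *Ces2c* (0.295), *Ces3a* (0.364) and *Ces1e* (0.297) were all lost by their adjusted p.

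*Ces1g* was called higher in this comparison, going from 152, 100, 144 and 127 CPM to 144, 173, 204 and 211 CPM. The groups overlapped through HFD/FGFR4 KD 1, the lowest of its group, and the log2 change was 0.49 (SE 0.154, adjusted p = 0.0934). The *Ces1g* mean was 183 CPM in both HFD and HFD/FGFR4 KD, while it was 131 in Chow/FGFR4 KD and 169 in Chow. The Chow/FGFR4 KD libraries also enter the siRNA comparison on chow, so a low value there enters both. *Ces1b* rose from 48.7, 56.4, 60.1 and 50.0 CPM to 64.3, 61.5, 61.1 and 80.4 CPM (log2 change 0.31, SE 0.115, adjusted p = 0.150). That call was lost without Chow/FGFR4 KD 1 (adjusted p = 0.300), Chow/FGFR4 KD 4 (adjusted p = 0.277) or HFD/FGFR4 KD 4 (adjusted p = 0.358), without the pair of libraries that stood apart (adjusted p = 0.267), and when the row was summed with *Ces1c* (log2 change 0.12, adjusted p = 0.531). *Ces2e* had a log2 change of 0.13 with a 95% interval of -0.27 to 0.53.

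**Figure D3:**
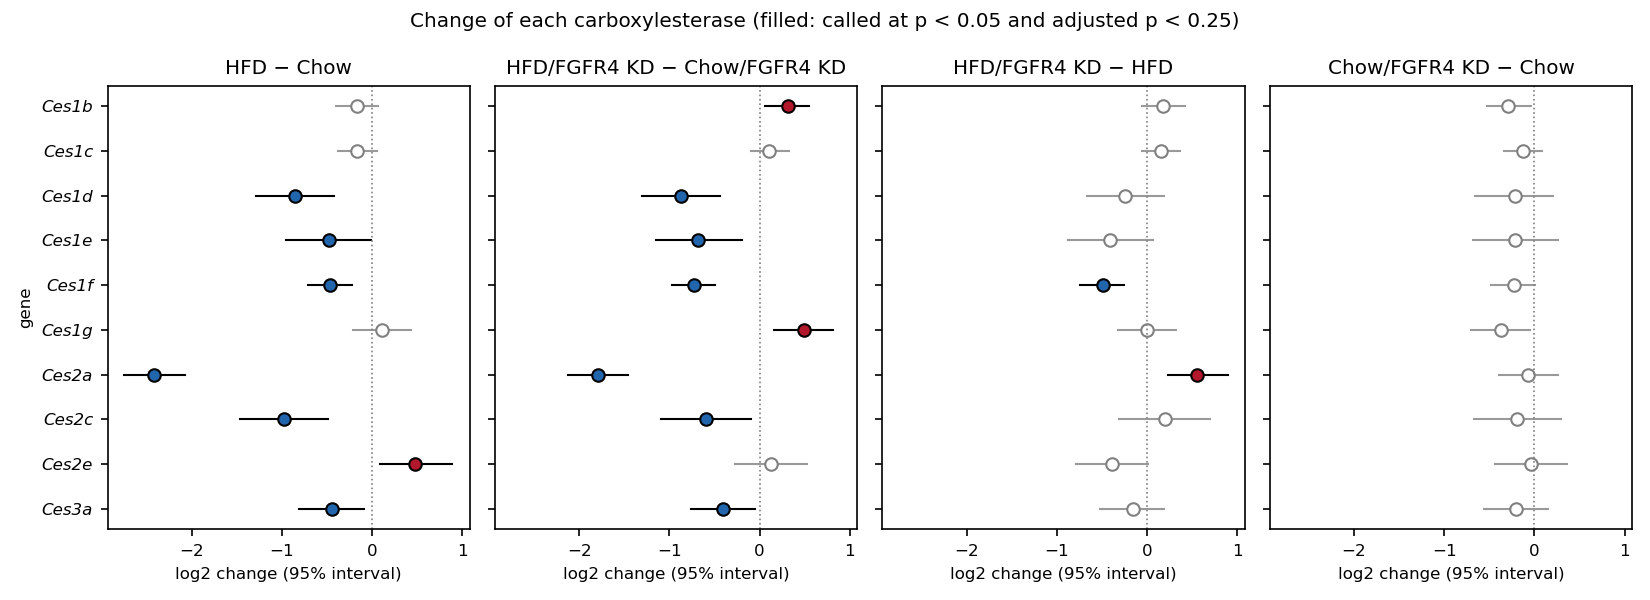
Log2 change of each member with its 95% interval in 4 comparisons (filled points, called at p under 0.05 and adjusted p under 0.25; open points, not called). *Ces2a* stands far to the left of the others in both diet comparisons, at -2.42 and -1.79, and the intervals of the knockdown on chow reach from -0.70 to 0.36.

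The siRNA changed few carboxylesterases on the high-fat diet. In HFD/FGFR4 KD against HFD 1 member was called higher (*Ces2a*) and 1 lower (*Ces1f*), beside 1.50% of tested genes called higher, 1.64% lower and 3.14% in either direction. Neither passed an adjusted p of 0.05, which 0.274% of tested genes did. *Ces1f* was the 1 member whose libraries did not overlap, against 6.49% of tested genes, and without the pair of libraries that stood apart it was again the 1 such member, against 10.1%. The median of the members was -0.08 on the log2 scale, beside 0.00 for all tested genes. This comparison and the diet comparison in saline mice share the 4 HFD libraries, and this one shares the HFD/FGFR4 KD libraries with the diet comparison under knockdown, so a value in those libraries enters both.

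*Ces1f* had 345, 283, 327 and 314 CPM in HFD and 204, 257, 217 and 224 CPM in HFD/FGFR4 KD. Each library with the siRNA lay below each without it, and the level was 1.41-fold lower (log2 change -0.49, SE 0.116, 95% interval -0.74 to -0.25, adjusted p = 0.0904). It was called with any library left out (adjusted p 0.0615 to 0.246) and lost with library totals in place of TMM (log2 change -0.57, adjusted p = 0.279). From Chow (439 ± 42.6 CPM) through HFD (317 ± 25.9) to HFD/FGFR4 KD (225 ± 22.5) it had its lowest level with both treatments, and it stood at 377 ± 62.1 CPM in Chow/FGFR4 KD.

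*Ces2a* had 67.0, 86.9, 47.1 and 73.4 CPM in HFD and 117, 80.5, 109 and 92.5 CPM in HFD/FGFR4 KD. HFD 2 lay above HFD/FGFR4 KD 2, so the groups overlapped, and the level was 1.48-fold higher (log2 change 0.56, SE 0.159, 95% interval 0.23 to 0.90, adjusted p = 0.177). It still stood at 27.9% of the Chow mean, against 19.2% in HFD. The call was lost without HFD 1 (adjusted p = 0.288), HFD 3 (adjusted p = 0.434) or HFD/FGFR4 KD 1, 3 or 4 (adjusted p 0.313 to 0.388), without the pair of libraries that stood apart (log2 change 0.49, adjusted p = 0.296), and in a fit of these 8 libraries alone (adjusted p = 0.310). The other 8 members lay between -0.41 (*Ces1e*) and 0.20 (*Ces2c*), and *Ces2e*, the member raised by the diet, had a log2 change of -0.39 (SE 0.187, adjusted p = 0.462).

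On chow the siRNA moved no member past the thresholds in limma-voom, and only 0.00883% of tested genes were called, *Fgfr4* itself. All 10 changes were below 0, from -0.37 (*Ces1g*) to -0.04 (*Ces2e*), with a median of -0.21 beside 0.00 for all tested genes. Chow/FGFR4 KD 4, the library rich in acute-phase genes, was the lowest of its group for *Ces1c*, *Ces1d*, *Ces1e*, *Ces1f*, *Ces2a* and *Ces3a*. Of the members 2 had an unadjusted p under 0.05, as did 519 of the 11324 tested genes. *Ces1g* had 182, 137, 194 and 162 CPM in Chow and 152, 100, 144 and 127 CPM in Chow/FGFR4 KD, with overlap (log2 change -0.37, 95% interval -0.70 to -0.05, adjusted p = 0.976). *Ces1b* was the other (log2 change -0.29, adjusted p = 0.976). For *Ces2a* the change was -0.07 with an interval of -0.39 to 0.26, and without Chow/FGFR4 KD 4 it was 0.03. The edgeR and DESeq2 fits also called 0 members.

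Whether the siRNA acted differently on the 2 diets was tested by the difference of its effects. In limma-voom it called 0 of the 10 members, beside 0.0353% of tested genes. There 2 members had an unadjusted p under 0.05, as did 765 of the 11324 tested genes. The edgeR and DESeq2 tests of this difference called 0 members as well. The difference was 0.63 for *Ces2a* (SE 0.222, 95% interval 0.16 to 1.10, adjusted p = 0.617) and 0.47 for *Ces1b* (SE 0.160, 95% interval 0.13 to 0.81, adjusted p = 0.592). It was 0.37 for *Ces1g* (95% interval -0.08 to 0.83, adjusted p = 0.785). For *Ces1f* the difference was -0.26 with an interval of -0.61 to 0.09, so its fall with the siRNA was not shown to differ between the diets.

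The libraries of a group came in a repeated order. The 4 HFD libraries split the same way for each of the 10 members and for *Ces2b*, *Ces2g*, *Ces3b* and *Ces4a*, the other family rows with more than a few counts, although *Ces4a* had only 0 to 6 counts there. HFD 2 and HFD 4 were both above HFD 1 and HFD 3 for 8 of these 14 genes (*Ces1b*, *Ces1c*, *Ces2a*, *Ces2b*, *Ces2c*, *Ces3a*, *Ces3b* and *Ces4a*) and both below for the other 6 (*Ces1d*, *Ces1e*, *Ces1f*, *Ces1g*, *Ces2e* and *Ces2g*). In HFD/FGFR4 KD, library 1 was the highest of its group for 6 of the first set and the lowest for all 6 of the second. Many other genes were split in the same way. HFD 2 and HFD 4 lay on the same side of HFD 1 and HFD 3 for 44.6% of all 11324 tested genes, in equal shares above and below (22.3% each), and HFD/FGFR4 KD 1 was the highest or the lowest of its group for 60.8%. A large part of both shares would arise if the order of the libraries were random for each gene. The chi-square of the counts between a pair of libraries, averaged over genes with at least 10 counts in that pair (near 1 for sampling noise alone), was 7.40 for HFD 1 and 3 and 8 for HFD 2 and 4, against 22 to 35.9 for the other HFD pairs, and it was 31.1 to 45.3 between HFD/FGFR4 KD 1 and the rest of its group, against 5.42 to 10.8 among the rest. This order was noticed in the values and carries no test. It does not follow the arrays, since *Ces2e* and *Ces2g* sat with *Ces1d*, *Ces1e*, *Ces1f* and *Ces1g*.

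The values of *Ces3b* show the first set and those of *Ces1d* the second. *Ces3b* counts per 100 of *Ces3a* were 21.1 to 23.4 in Chow, but 7.79, 12.1, 7.20 and 28.7 in HFD and 18.5, 7.11, 11.9 and 9.78 in HFD/FGFR4 KD. HFD 4 and HFD/FGFR4 KD 1 were thus nearest to the Chow ratio among the HFD-fed mice. *Ces1d* had 458 and 447 CPM in HFD 1 and HFD 3 against 271 and 331 in HFD 2 and HFD 4. Summed stellate cell markers moved with this split, at 306 and 312 CPM in HFD 1 and HFD 3 against 193 and 186 in HFD 2 and HFD 4, and were lowest of their group in HFD/FGFR4 KD 1 (138). Summed cholangiocyte markers were 55.3 and 92.5 against 14.4 and 26.7 CPM. Hepatocyte markers were 86070 and 82847 against 77432 and 71170 CPM, with the lowest value of its group in HFD/FGFR4 KD 1 (73895). Intestinal epithelium markers were 171 and 163 against 139 and 129 CPM, and pancreas markers went the other way, at 7.06 and 4.75 against 28 and 13.1 CPM. Clock genes high in the light phase (265 and 338 against 363 and 396 CPM) and acute-phase genes (2939 and 3405 against 2781 and 2597) were also split. The macrophage list was not, at 132, 215, 129 and 123 CPM in HFD 1 to 4. Nor were the endothelial cell and adipocyte lists and the clock genes high at the turn from dark to light. The part of all these lists in the order of the libraries was not tested.

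**Figure D4:**
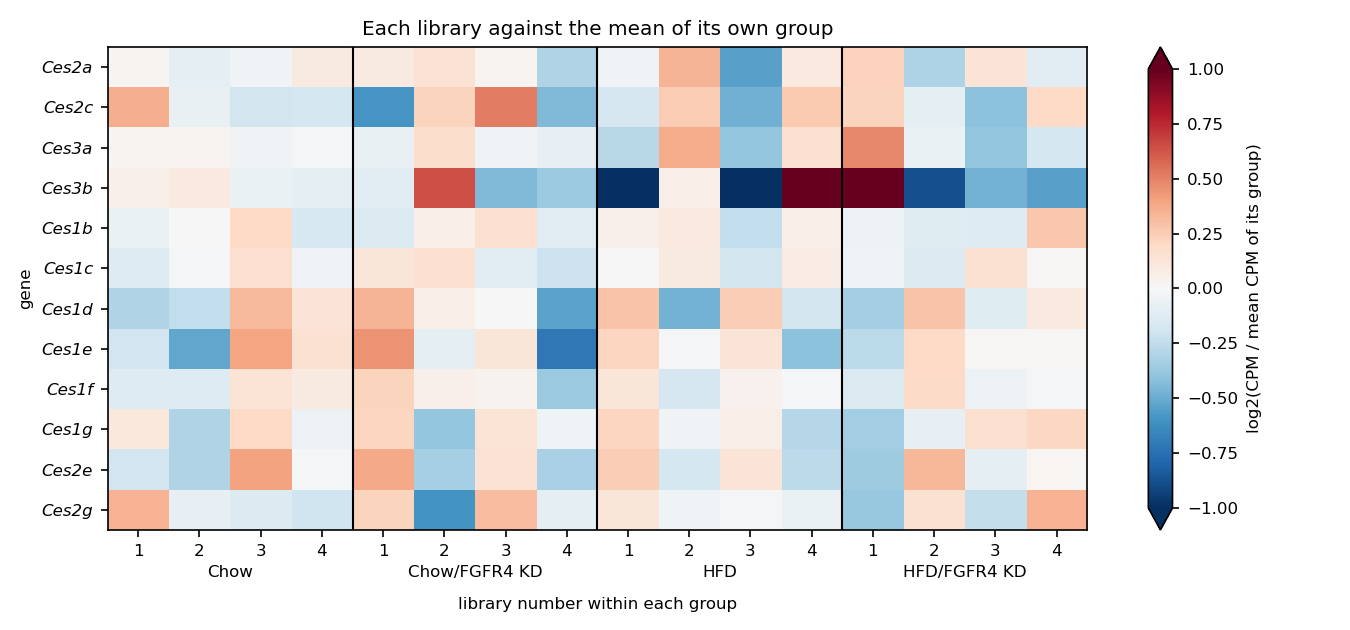
Log2 ratio of each library's CPM to the mean CPM of its own group, for the 10 members, *Ces2g* and *Ces3b* (columns, libraries 1 to 4 of each group; red, above the group mean; blue, below; values beyond 1 in size take the end colours). In HFD the upper 6 genes are higher in libraries 2 and 4 than in 1 and 3 and the lower 6 genes the reverse, and HFD/FGFR4 KD 1 is blue for all of the lower 6.

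Other measures also moved with the diet. Summed macrophage markers were 65.5 to 73.6 CPM in Chow and 123 to 215 in HFD (8 of 9 called higher), and stellate cell markers 117 to 162 against 186 to 312 (5 of 8 higher). The hepatocyte list overlapped between the groups, at 74200 to 82100 and 71200 to 86100 CPM, with 4 of 8 genes called lower. Clock genes that peak at the turn from dark to light summed to 146 to 191 CPM in Chow and 51.5 to 76.1 in HFD (5 of 5 lower), and 3 of those 5 were higher with the siRNA on HFD. Clock genes high in the light phase summed to 151 to 259 CPM in Chow and 265 to 396 in HFD (4 of 6 higher). Summed adipocyte genes were 1807 to 2372 CPM in Chow and 1251 to 1691 in HFD, with *Lep* at 0 in every library. Of the 4 adipocyte genes tested, 3 were called higher and 1 lower (median log2 change 2.28), so the lower sum did not follow most of them. The part of these in the carboxylesterase changes was not tested.

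Other enzymes that cut lipid and ester bonds were called in both directions. Of 22 tested, 8 were called higher and 4 lower in HFD against Chow, with a median of 0.18 on the log2 scale. The butyrylcholinesterase gene *Bche* (0.91, adjusted p = 0.000637), the endothelial lipase gene *Lipg* (0.99, adjusted p = 0.00207) and the monoacylglycerol lipase gene *Mgll* (0.88, adjusted p = 0.00465) rose. *Abhd2*, a hydrolase of the alpha/beta fold, rose most of the named genes (1.50, adjusted p = 0.00531). With the siRNA on HFD none of them was called higher and 4 were called lower, among them *Abhd6* (-0.61, adjusted p = 0.102) and *Mgll* (-0.59, adjusted p = 0.174). Of 10 genes of retinoid and cholesteryl ester handling 0 were called in the saline diet comparison by limma-voom, edgeR and DESeq2, and 0 had an unadjusted p under 0.05. Under knockdown 5 of those 10 were called for diet, 4 higher and 1 lower, against 4 by edgeR and 5 by DESeq2. The cholesterol esterification gene *Soat1* rose (1.09, adjusted p = 0.115), and *Mttp*, which loads lipid onto apolipoprotein B, was lower (-0.21, adjusted p = 0.179). The median log2 change of these 10 genes was 0.21 in both diet comparisons. For the difference of the siRNA effects 0 of them were called by limma-voom, edgeR and DESeq2.

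Among 18 nuclear receptors and other regulators of such genes, 5 were called higher and 1 lower in HFD. *Ppara*, the fatty acid receptor, rose by 0.61 (adjusted p = 0.0119), *Nfe2l2*, which encodes the oxidative stress regulator NRF2, by 0.63 (adjusted p = 0.0554) and *Pparg*, the adipogenic receptor, by 1.05 (adjusted p = 0.0719). *Hnf4a*, a hepatocyte identity factor, fell by 0.44 (adjusted p = 0.108). None of them was called with the siRNA on HFD by limma-voom, edgeR or DESeq2. In limma-voom 1 had an unadjusted p under 0.05, as did 1244 of the 11324 tested genes. Of 14 tested genes commonly used as targets of CAR and PXR, the drug-sensing receptors, 5 were called lower and 0 higher in HFD by limma-voom, against 7 called by edgeR and 8 by DESeq2. The median of that list was 0.05, and 9 of the 14 were not called. *Cyp3a11* fell by 2.95 on the log2 scale (adjusted p = 0.000654), *Cyp2c55* fell by 2.04 (adjusted p = 0.00702) and *Cyp2c29* by 1.58 (adjusted p = 0.000103). *Nr1i3*, the gene for CAR, was called higher (0.63, adjusted p = 0.161) and is named here after its values were seen. With the siRNA on HFD *Cyp2c29* was higher by 0.68 (adjusted p = 0.102), the 1 gene of that list called by limma-voom, against 1 called by edgeR and 2 by DESeq2.

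Few genes around the arrays could be tested. Of 46 table rows within 250 kb of the *Ces2* to *Ces4* array 15 were tested, and 2 were called in the saline diet comparison, beside 26% of all tested genes. These were *E2f4*, lower (-0.41, adjusted p = 0.0822), and *Fhod1*, higher (0.66, adjusted p = 0.178). So small a count does not set the neighbours apart from other genes. None of the 17 rows within 250 kb of the *Ces1* array passed the filter on low counts.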

How the data were processed

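Reads had been trimmed with fastp and quantified with kallisto on GRCm38, per the labels, and summed per gene with tximport, per the study's methods. Versions and the annotation release are not given in the sources used here. The authors deposited expected counts, with fractional values in 7.85 to 11.1% of all 52143 rows per library. Of these rows 27199 were at 0 in every library, so the share among counted genes was higher. The counts were used as deposited and rounded for DESeq2 only. Genes under 1 CPM in more than 4 libraries were dropped, as in the study. TMM factors (0.836 to 1.17) and limma-voom (limma 3.58.1, edgeR 4.0.16, R 4.3.3) gave a mean per group over all 16 libraries, with Benjamini-Hochberg adjustment over all tested genes. The fit was tested on simulated data with known changes, and how many it recovered is not reported here. The edgeR quasi-likelihood test, DESeq2 1.42.0 and other scalings, filters and left-out libraries were alternatives. The members and gene lists were chosen with earlier results of these data known. Named genes were the members, the other family rows, Fgfr4, up to 4 called genes with the smallest p per list and comparison, and up to 4 neighbours. Mice shared cages of 4, per the study's methods, and the labels give no cage, so cage and group cannot be told apart and p-values measure the spread between these samples. Same-numbered libraries of different groups correlated at -0.29 to 0.24 in their deviations and were not treated as pairs. Words and coding sequences came from GENCODE M21 transcripts and promoters from RefSeq, both on GRCm38. Identity was compared over coding bases, since no protein table was used here. Limits set by a count of 0 cover counting error only.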

Additional observations from a re-analysis of the deposited data

Results flagged for a closer look

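A library was set apart when its gap to the nearest other library of its group of 4 took up most of the group's range (Dixon's test at 95%). Of 56 gene and group pairs looked at, 4 met this, and chance flags about 1 in 20. *Ces3b* in HFD/FGFR4 KD 1 stood at 299 CPM, with the next library at 105. The summed family in that library was 4815 CPM, with the next at 4340. *Ces1b* in HFD/FGFR4 KD 4 was 80.4 CPM, above the next value of 64.3, and *Ces1b* in HFD 3 was 49.4 CPM, below the next value of 60.6. The cause of these values was not tested.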

How the results depend on the processing

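Of the 10 members, 7 were called for diet in saline mice, 2 for the siRNA on HFD, 0 for the siRNA on chow, 0 for the difference and 8 for diet under knockdown. The counts were equal with the edgeR test, DESeq2, a looser filter (4 libraries at 1 CPM or more), library quality weights, and Gm42418 and Lars2 removed. With library totals only they were 4, 0, 0, 0 and 5, and at an adjusted p under 0.05 they were 4, 0, 0, 0 and 3. Without a filter diet under knockdown gave 6, and without Chow/FGFR4 KD 4 and HFD/FGFR4 KD 1 together it gave 7. For the siRNA on HFD the count was 1 without a filter, 1 in the fit of only the groups compared, and 1 without that pair, a setting chosen after seeing the data, as were the sums over rows that share sequence. Leaving out each library gave 5 to 6 for diet in saline mice, 1 to 2 for the siRNA on HFD and 6 to 8 for diet under knockdown. With the replicate number as a block the counts were 7, 2, 0, 0 and 8, and no call of a member changed. Of the 24 same-numbered pairs, 7 correlated above 0.1. Library totals turned *Ces1b* to 0.12 and *Ces1c* to 0.11 for diet in saline mice, and *Ces2a* for the siRNA on chow turned to 0.03 without Chow/FGFR4 KD 4, alone or with HFD/FGFR4 KD 1, within a range of -0.12 to 0.03 over the left-out libraries. Over all genes, diet in saline mice called 2939, against 5324 without a filter, and the siRNA on HFD called 356, against 776 with quality weights, 222 in the fit of only the groups compared, 209 without the same pair of libraries and 114 with library totals. The difference called 4 genes, against 54 by DESeq2. With library totals the share of calls that were higher went from 50.1 to 82.8% for diet under knockdown and from 47.8 to 33.3% for the siRNA on HFD, and upper quartile factors gave 61.4% for the former. Words of 21 bases put the shared percentages at 8.38 to 59.5. Depth limits *Ces4a*, *Ces2b* and the other rows that were not tested. The cause of these shifts was not tested.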
